A study of Homo sapiens with 44 samples.

Results

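A pair of short hairpin RNAs against the same kinase transcript, GSK3B, were set against each other. The comparison took all 8 arrays with GSK3B Construct 1 (hairpin 1 below) and all 8 arrays with GSK3B Construct 2 (hairpin 2), which are 16 of the 44 arrays of the study. The arrays were chosen by their labels alone, and each cell line and replicate number gave 1 pair of hairpin arrays, 8 pairs in all. No control array entered a test. Control arrays appear only as a level to read the hairpin values against.

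The cells were 4 established human acute myeloid leukemia lines, U937, MOLM-14, THP-1 and HL-60, each infected by lentivirus and measured on Affymetrix arrays. Each line had 2 arrays with hairpin 1, 2 with hairpin 2 and 3 with a scrambled control hairpin, and 16 further arrays of the study carried hairpins against GSK3A. All infected cells were under puromycin at 1 µg per mL from 48 h after infection, and their RNA was collected 48 h after that. The replicates are called biological, but the labels do not say that they came from separate cultures or infections, so p-values may measure only a technical spread. Hairpin 1 lay in plate columns 3 and 8 and hairpin 2 in columns 4 and 9, so hairpin and plate column cannot be told apart. In such bulk samples, fewer cells of one kind and less RNA per cell cannot be told apart either.

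A short hairpin RNA is cut by Dicer into a small duplex, and an Argonaute protein then uses one strand to find matching transcripts. A hairpin can also lower transcripts that match only its seed, the short stretch near the start of the guide strand, and that set differs from one hairpin to the next. GSK3B is a serine/threonine kinase that marks beta-catenin for destruction, inhibits glycogen synthase and phosphorylates MYC, NRF2 and many other proteins. In myeloid leukemia it has been studied as a kinase that holds back differentiation and supports growth. The hairpin sequences were not used here, so no seed match was searched.

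The lines carried some of the myeloid transcripts looked at, and others were dim. CEBPA, a myeloid transcription factor, lay between 1013 and 2465 intensity units over the 16 arrays, and PTPRC, the pan-leukocyte antigen CD45, between 360 and 726. SPI1, another myeloid transcription factor, lay only between 15.35 and 35.8, and CSF1R, a macrophage growth factor receptor, between 9.33 and 49.9. MPO, the myeloperoxidase of primary granules, was bright in HL-60, at 4866 to 5640, and at 51.8 or less in the other lines. CD14, a monocyte receptor, lay between 137 and 355 in HL-60 and at 14.8 or less in the other lines. Every one of the 16 arrays was nearest to another array of its own line, and no arrays held identical values. Within MOLM-14 and U937 the replicate arrays stood apart from each other: 32 and 36 of 12165 genes differed at least 2-fold between replicate 1 and 2, in the same direction with both hairpins. In HL-60 and in THP-1 there were 0 such genes, and the pairs in each line keep this replicate difference out of the hairpin comparison.

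Both hairpins left less GSK3B transcript than the control arrays in every line, and hairpin 2 left less than hairpin 1 in 7 of 8 pairs. The 12 control arrays lay between 140 and 204 intensity units with a median of 174. The 8 hairpin 1 arrays ran from 27.5 to 97.7 with a median of 53.4, and the 8 hairpin 2 arrays from 22.4 to 80.4 with a median of 40.9. The hairpin ranges overlapped each other and neither reached the lowest control array.

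By line, HL-60 kept 28.5% of the control level with hairpin 1 and 19.7% with hairpin 2. U937 kept 32.5% and 21.6% in the same order. THP-1 kept the most transcript with both, 51.6% and 41.9%. MOLM-14 was the exception, with 17.9% for hairpin 1 and 19.9% for hairpin 2. Its hairpin 2 arrays read 22.4 and 40.6, on both sides of its hairpin 1 arrays at 27.5 and 29.3.

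**Figure D1:**
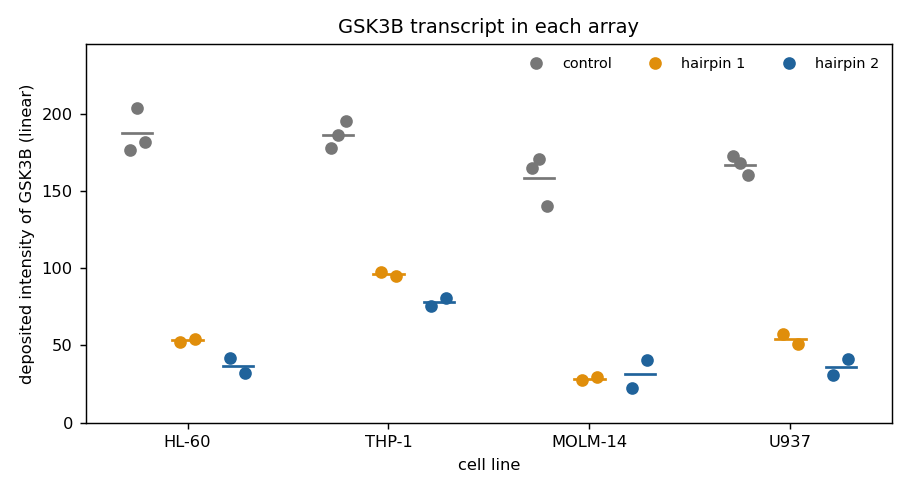
Deposited intensity of the GSK3B probe set (vertical axis, linear) in each array of the 4 cell lines, with 3 control arrays (grey), 2 hairpin 1 arrays (orange) and 2 hairpin 2 arrays (blue) per line. Points are arrays and short lines are group means. No hairpin array reached the lowest control array, 140, and hairpin 2 lay lower than hairpin 1 in each line except MOLM-14.

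The size of this difference was small beside the knockdown itself. On the scale of log2(intensity + 16), hairpin 2 minus hairpin 1 was −0.25 ± 0.09 for GSK3B, where an error after ± is the standard error of the fit. The limma fit, after Benjamini-Hochberg adjustment over all genes, gave an adjusted p = 0.101, which misses the threshold of 0.05. The exact two-sided sign-flip test over the 8 pairs gave p = 0.0469, where the smallest possible value is 0.00781. Both tests count the 2 pairs of a line as separate, which the labels do not assure. The GSK3B difference passed limma's adjusted threshold in 3 of the other settings. Without MOLM-14 it was −0.36 with adjusted p = 0.0195, and without the replicate 2 pair of that line −0.33 with adjusted p = 0.0105. With all lines but dim genes left out it was −0.25 with adjusted p = 0.045. GSK3A, the paralog, differed by 0.06 ± 0.04, with adjusted p = 0.375 and an exact p of 0.164. Over 11 other ways of processing limma's adjusted p for GSK3A ran from 0.0325 to 0.56.

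Away from the target, 1401 of 12165 genes differed between the hairpins over the lines, which is 11.5%. With hairpin 2, 785 genes (6.45%) were higher and 616 (5.06%) were lower. Most differences were modest: 71 of these genes differed by at least 1.5-fold, 12 of them higher and 59 lower with hairpin 2. At 2-fold or more there were 8, of which AGPAT5 and ALDH5A1 were higher and FAM3C, GCLM, RAB6A, HMOX1, SLC7A11 and CCR1 lower. The same sign in all 8 pairs was found for 1085 of all 12165 genes (8.92%) and for 941 of the 1401, which were chosen on these same pairs.

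The count depends on how the arrays are paired and on how many enter. With cell line as the block and no replicate block, 814 genes passed. Leaving out HL-60 left 631, its replicate 2 pair alone 930, and leaving out MOLM-14 left 849. With replicate 2 alone or replicate 1 alone, 6 and 25 genes passed.

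The 12 genes with the largest differences toward more transcript under hairpin 2 had varied known roles. AGPAT5, an acyltransferase of phosphatidic acid synthesis, ran from 455 to 816 intensity units with hairpin 1 (median 622) and from 987 to 1842 with hairpin 2 (median 1303). The hairpin ranges of AGPAT5 did not overlap. Its difference was 1.16 ± 0.08 (adjusted p = 0.000134, higher in 8 of 8 pairs), and the control arrays lay between 840 and 1582. Against the control mean of each line, AGPAT5 was at −0.99 with hairpin 1 and at 0.17 with hairpin 2, averaged over the lines.

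ALDH5A1, succinic semialdehyde dehydrogenase of GABA breakdown, ran from 33.9 to 134 with hairpin 1 (median 70.3) and from 102 to 435 with hairpin 2 (median 164). Its ranges overlapped, but within each of the 8 pairs hairpin 2 was higher. The difference was 1.09 ± 0.16 (adjusted p = 0.00357), from 0.59 in THP-1 to 1.77 in HL-60, and it differed between lines (adjusted p = 0.0217). The other ALDH5A1 probe set gave 0.36.

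SCAMP1, a membrane protein of secretory vesicles, was 0.94 ± 0.07 higher with hairpin 2 (adjusted p = 0.000216). Of its 5 probe sets, 4 were higher and 1 was at −0.01. CLIC4, a chloride channel family protein, differed by 0.74 ± 0.09 and HTRA2, a mitochondrial protease that promotes apoptosis, by 0.71 ± 0.07. PAAF1, a proteasome assembly factor, differed by 0.72 ± 0.12 and MED21, a Mediator subunit, by 0.66 ± 0.09. These 4 genes had adjusted p of 0.00125, 0.000713, 0.0054 and 0.00175, and all 8 pairs were higher for each.

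The remaining leaders were CETN2, a centriole protein (0.65 ± 0.12), PRELID3B, of a lipid transfer family (0.65 ± 0.09), and DBF4, the activator of the CDC7 replication kinase (0.63 ± 0.07). CALCOCO2, an autophagy receptor, differed by 0.63 ± 0.05, and DNAJC1, a chaperone partner in the endoplasmic reticulum, by 0.62 ± 0.07. Adjusted p for these 5 lay between 0.000216 and 0.00974. CETN2 lost its call without HL-60 (0.53, adjusted p = 0.0659).

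The genes lower with hairpin 2 reached larger differences. FAM3C, a secreted interleukin-like protein, ran from 215 to 263 with hairpin 1 (median 248) and from 48.6 to 137 with hairpin 2 (median 75.2). The control arrays read 171 to 266, so the hairpin 1 arrays lay within the control range and every hairpin 2 array lay below both. The difference was −1.40 ± 0.11 (adjusted p = 0.000216), from −0.94 in THP-1 to −1.74 in MOLM-14.

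RAB6A, a small GTPase of Golgi traffic, likewise had all 8 hairpin 2 arrays below the controls. It ran from 452 to 651 with hairpin 1, from 169 to 409 with hairpin 2 and from 422 to 635 in the controls. The difference was −1.12 ± 0.11 (adjusted p = 0.000617). Its 3 probe sets were all lower, by −1.14 to −0.06.

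KIFBP, a kinesin-binding protein, differed by −0.94 ± 0.07 (adjusted p = 0.000134), RTCA, an RNA cyclase, by −0.92 ± 0.08 (adjusted p = 0.000238), BAG2, a co-chaperone of HSP70, by −0.87 ± 0.07 (adjusted p = 0.000239) and RNF170, a ubiquitin ligase of the endoplasmic reticulum, by −0.87 ± 0.07 (adjusted p = 0.000239). Each was lower in 8 of 8 pairs. A second RTCA probe set was at 0.02, so its probe sets disagree.

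**Figure D2:**
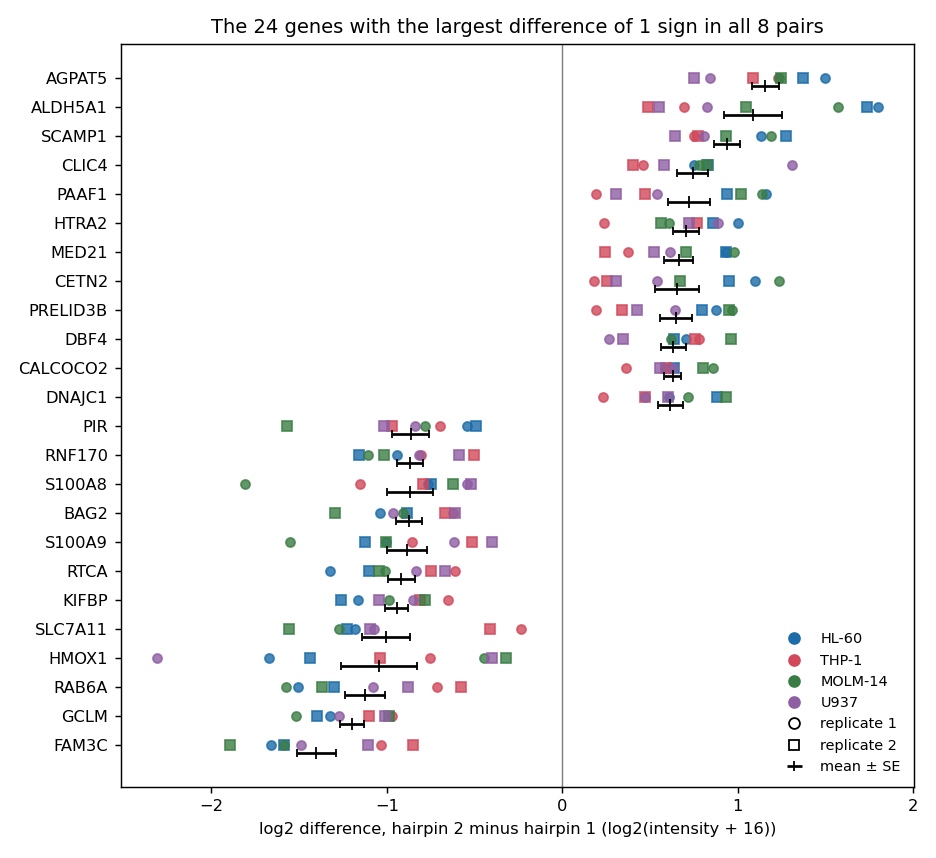
Log2 difference, hairpin 2 minus hairpin 1, in each of 8 pairs (horizontal axis) for the 12 genes with the largest higher and the 12 with the largest lower difference among those past the test with 1 sign in all pairs. Colours are cell lines, circles replicate 1, squares replicate 2, and black bars the mean ± SE. The genes were picked for their size, from AGPAT5 at 1.16 to FAM3C at −1.40, and THP-1 often lies nearest to 0.

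Set against the controls, the leading genes of each direction stood farther off with different hairpins. Of the 12 genes at least 1.5-fold higher with hairpin 2, 10 lay farther from the control with hairpin 1. Their median was −0.57 with hairpin 1 and 0.18 with hairpin 2. Of the 59 genes at least 1.5-fold lower with hairpin 2, 47 lay farther from the control with hairpin 2, with medians of 0.17 for hairpin 1 and −0.53 for hairpin 2. Over all genes, 52.2% lay farther with hairpin 2, and over the 1401 genes, 58.7%. These values have no test, since both hairpins share the control arrays.

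The 24 leading genes fall into sets by this measure. KIFBP was at 0.09 with hairpin 1 and −0.85 with hairpin 2, RTCA at 0.04 and −0.88, RNF170 at 0.03 and −0.84, RAB6A at 0.10 and −1.02 and FAM3C at 0.13 and −1.27. For these the hairpin 1 level was close to the control. SCAMP1 at −0.83 and 0.11, HTRA2 at −0.63 and 0.08, MED21 at −0.70 and −0.03 and DBF4 at −0.56 and 0.07 were close to the control with hairpin 2. Others stood on both sides: HMOX1 was at 0.91 with hairpin 1 and −0.13 with hairpin 2, SLC7A11 at 0.58 and −0.43, and S100A8 at 0.48 and −0.39.

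**Figure D3:**
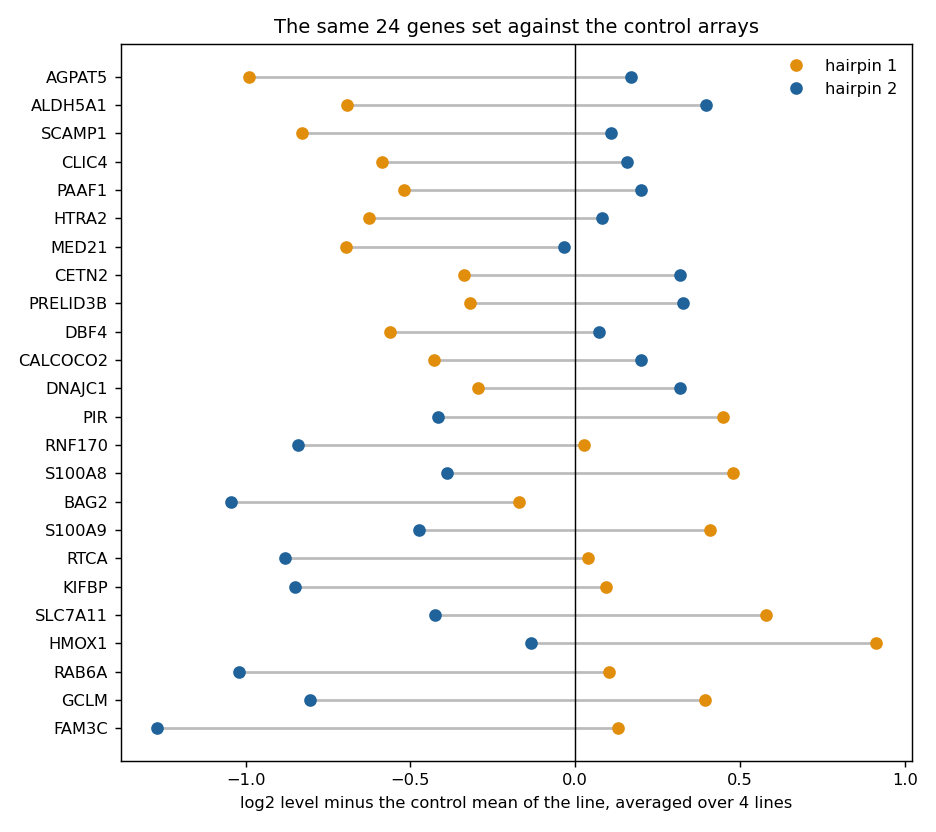
Level of the 24 leading genes with hairpin 1 (orange) and hairpin 2 (blue) minus the control mean of the same line, averaged over the 4 lines (horizontal axis, log2). Grey lines join the hairpins of a gene. The upper 12 genes lie below the control with hairpin 1, and FAM3C, RAB6A, KIFBP, RTCA and RNF170 lie below it with hairpin 2.

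Genes of the NRF2 response were lower with hairpin 2. NRF2, encoded by NFE2L2, is the transcription factor that switches on glutathione synthesis, thioredoxin and quinone-detoxifying genes through the antioxidant response element. It is held down by KEAP1, and GSK3 can mark it for destruction by another route. Of 22 measured genes of the list, 13 were lower with hairpin 2 and 0 were higher, against 5.06% and 6.45% of all genes. The median difference of the list was −0.21 and that of all genes 0.00. By line the median of the list was −0.27 in MOLM-14, −0.26 in HL-60 and −0.20 in U937 and THP-1. Without the replicate block 6 were lower, and with either replicate number alone 2. At an unadjusted p under 0.05 limma had 15 lower and 0 higher.

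GCLM, the modifier subunit of the enzyme that makes the glutathione precursor, had the smallest adjusted p over the lines of the genes named here. It ran from 275 to 888 with hairpin 1 (median 737), from 127 to 410 with hairpin 2 (median 288) and from 217 to 707 in the controls. The ranges overlapped: U937 replicate 2 read 275 with hairpin 1, below the THP-1 arrays with hairpin 2 at 410 and 403. Within every pair hairpin 2 was lower, with a difference of −1.20 ± 0.07 (adjusted p = 5.69e-05). The lines were close to each other, from −1.36 in HL-60 to −1.04 in THP-1.

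SLC7A11, the cystine importer that feeds glutathione synthesis, differed by −1.01 ± 0.14 (adjusted p = 0.00223), with −0.32 in THP-1. HMOX1, the heme-degrading oxygenase, ran from 48.4 to 737 with hairpin 1 and from 27.6 to 148 with hairpin 2. In U937 its hairpin 1 arrays read 737 and 48.4 and its hairpin 2 arrays 135 and 32.8, so the replicates of that line differed more than the hairpins. The HMOX1 difference was −1.05 ± 0.22 (adjusted p = 0.0144). HMOX1 did not pass without the replicate block (adjusted p = 0.247), without HL-60 (0.0967) or without THP-1 (0.0502).

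PIR, an iron-binding nuclear protein, differed by −0.86 ± 0.10 (adjusted p = 0.00137, and 0.0595 without the replicate block). NQO1, the quinone reductase, differed by −0.69 ± 0.06 (adjusted p = 0.000364, and 0.15 without the replicate block). ME1, malic enzyme and a source of NADPH, differed by −0.77 ± 0.19, from −1.58 in HL-60 to −0.06 in U937, and 1 of its 3 probe sets was at 0.01. TKT and TALDO1, of the pentose phosphate pathway, differed by −0.30 ± 0.04 and −0.24 ± 0.03. TXNRD1, thioredoxin reductase, differed by −0.24 ± 0.04.

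The regulators themselves were among the lower genes. NFE2L2 ran from 662 to 934 with hairpin 1 and from 443 to 817 with hairpin 2, a difference of −0.31 ± 0.06 (adjusted p = 0.0119). MAFG, a small MAF partner of NRF2, differed by −0.31 ± 0.04 and KEAP1 by −0.14 ± 0.03 (adjusted p = 0.0126). The catalytic subunit gene GCLC differed by −0.12 ± 0.05 and did not pass (adjusted p = 0.207). AKR1C1 stood apart with 1.03 in THP-1, where its arrays read 405 and 451 with hairpin 1 and 972 and 793 with hairpin 2. AKR1C1 shares near-identical sequence with AKR1C2, so which transcript this probe set measured is uncertain.

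The promoters of the list were searched for the core antioxidant response element, TGACNNNGC, on both strands. RefSeq windows from 250 bases before to 50 after the start (GRCh38.p14) were given for 17 of the 22 genes, and 6 of them held the element: EPHX1, GCLM, KEAP1, ME1, PIR and TXNRD1. Of the 11 lower genes with a window, 5 held it, and of the 6 others, 1. A gene can have several windows. Counted by window, 7 of the list's 22 windows held it, against 13.3% of all 35116 windows of this length. A match is a description of the letters and not a site. The 250 bases before the start are printed for GCLM (chr1:93909431-93909680, minus strand) and for TXNRD1 (chr12:104215529-104215778, plus strand), 5′ to 3′ on the gene's strand, because GCLM had the largest difference of the list. Capitals mark the element, which lies on the opposite strand in GCLM.
GCLM: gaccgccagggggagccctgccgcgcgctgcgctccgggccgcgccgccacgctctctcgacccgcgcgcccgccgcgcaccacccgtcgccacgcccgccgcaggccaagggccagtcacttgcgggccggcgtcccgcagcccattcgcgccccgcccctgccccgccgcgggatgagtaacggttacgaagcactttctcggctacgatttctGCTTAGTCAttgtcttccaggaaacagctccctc
TXNRD1: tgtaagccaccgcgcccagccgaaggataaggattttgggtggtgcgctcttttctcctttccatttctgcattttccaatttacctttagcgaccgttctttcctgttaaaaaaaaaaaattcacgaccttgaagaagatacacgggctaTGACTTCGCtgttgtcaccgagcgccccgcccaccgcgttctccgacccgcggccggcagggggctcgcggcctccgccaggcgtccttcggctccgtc

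Genes of the unfolded protein response were also lower with hairpin 2. This response to misfolded protein in the endoplasmic reticulum is run by the sensors ATF6, IRE1 (ERN1) and PERK (EIF2AK3), which raise chaperones and degradation factors. Of 22 measured genes, 12 were lower and 0 higher, against 5.06% and 6.45% of all genes, and the median difference was −0.15. The medians of the lines lay between −0.19 in U937 and −0.14 in THP-1. Without the replicate block 4 were lower, and with replicate 2 or 1 alone 0 or 1, where 11 were lower with replicate 2 alone at limma's unadjusted p under 0.05. Over all pairs 13 were lower and 1 was higher at that unadjusted threshold.

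PDIA3, a disulfide isomerase of glycoprotein folding, ran from 1484 to 2699 with hairpin 1 (median 1887) and from 912 to 1753 with hairpin 2 (median 1292). Its difference was −0.60 ± 0.05 (adjusted p = 0.000205, lower in 8 of 8 pairs), between −0.78 in MOLM-14 and −0.48 in THP-1. The sensor ATF6 ran from 60.8 to 215 with hairpin 1 and from 42.0 to 183 with hairpin 2, and differed by −0.38 ± 0.04 (adjusted p = 0.000677). HERPUD1, a degradation factor, differed by −0.61 ± 0.11, with −1.11 in MOLM-14 and −0.27 in THP-1.

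Smaller differences were seen for chaperones and their partners. MANF, a secreted stress factor, differed by −0.33 ± 0.04, CALR, a lectin chaperone, by −0.35 ± 0.06, and HYOU1 by −0.23 ± 0.04. HSPA5, the chaperone BiP, differed by −0.19 ± 0.04 (adjusted p = 0.00936) and HSP90B1, the chaperone GRP94, by −0.14 ± 0.03 (adjusted p = 0.00877). CANX, the membrane-bound relative of CALR, was at 0.24 ± 0.09 and did not pass (adjusted p = 0.126). The sensors EIF2AK3 at −0.10 ± 0.06 and ERN1 and the factor XBP1 did not pass either.

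The endoplasmic reticulum stress element by its consensus, which joins CCAAT and CCACG over a fixed gap, was searched on both strands of the same kind of window. It was found for 7 of 20 genes of the list with a window, CALR, CANX, HSP90B1, HSPA5, PDIA6, SERP1 and XBP1. Of these, 3 were lower with hairpin 2 (of 10 lower genes with a window) and 4 were not (of 10). Counted by window, 9 of the list's 26 windows held the element, against 0.0769% of all windows. The 250 bases before the start of the 3 lower genes are shown, 5′ to 3′ on the gene's strand, with the element in capitals on either strand. The windows are chr9:125241344-125241593 (minus) for HSPA5, chr12:103930160-103930409 (plus) for HSP90B1 and chr19:12938359-12938608 (plus) for CALR. HSP90B1 holds 2 elements, in opposite orientation.
HSPA5: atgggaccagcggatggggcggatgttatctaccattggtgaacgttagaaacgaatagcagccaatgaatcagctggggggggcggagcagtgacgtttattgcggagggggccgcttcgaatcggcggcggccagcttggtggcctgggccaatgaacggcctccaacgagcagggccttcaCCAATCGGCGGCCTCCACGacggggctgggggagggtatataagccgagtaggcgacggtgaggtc
HSP90B1: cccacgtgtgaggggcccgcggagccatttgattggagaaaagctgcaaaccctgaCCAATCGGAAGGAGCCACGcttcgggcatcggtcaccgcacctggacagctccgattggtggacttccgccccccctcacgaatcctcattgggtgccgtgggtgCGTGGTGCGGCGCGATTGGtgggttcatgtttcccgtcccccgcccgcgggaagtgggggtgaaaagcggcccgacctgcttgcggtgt
CALR: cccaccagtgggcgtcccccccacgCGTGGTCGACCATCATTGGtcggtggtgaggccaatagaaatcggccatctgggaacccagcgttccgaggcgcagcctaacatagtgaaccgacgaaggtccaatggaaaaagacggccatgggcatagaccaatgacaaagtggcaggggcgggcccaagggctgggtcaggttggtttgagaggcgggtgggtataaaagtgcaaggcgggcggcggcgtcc

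**Figure D4:**
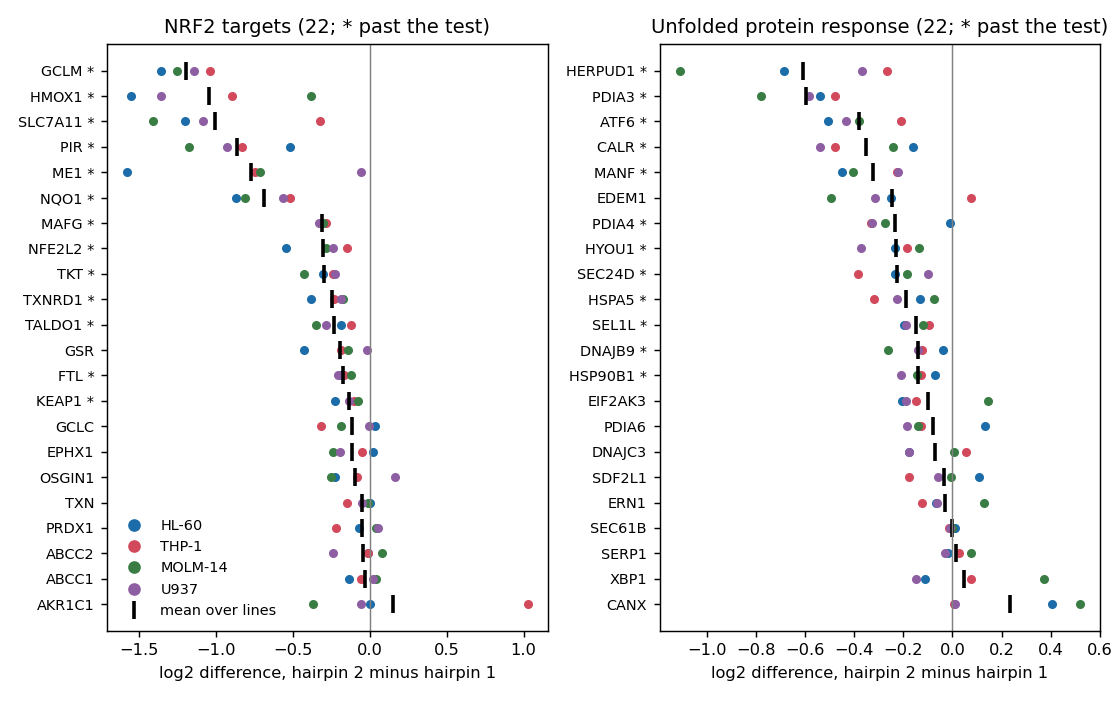
Log2 difference, hairpin 2 minus hairpin 1, of the 22 measured NRF2 genes (left) and the 22 measured unfolded protein response genes (right). Coloured points are the 4 lines, each the mean of 2 pairs, black bars the mean over lines, and a star marks genes past the test. The means of the 13 and 12 starred genes all lie below 0, and AKR1C1 at the foot of the left panel is at 1.03 in THP-1.

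Lysosome and autophagy genes gave 12 lower and 0 higher of 39 measured, against 5.06% and 6.45% of all genes, with a median of −0.07. NEU1, the lysosomal sialidase, ran from 154 to 381 with hairpin 1 and from 72.3 to 173 with hairpin 2, a difference of −0.78 ± 0.06 (adjusted p = 0.000152). CTSZ, a cathepsin, differed by −0.53 ± 0.05 (adjusted p = 0.000595), while its other probe set was at 0.03. ATP6V1A, of the proton pump, differed by −0.61 ± 0.10, IDS, iduronate sulfatase, by −0.52 ± 0.09 (2 of its 9 probe sets had the other sign) and TFE3, a transcription factor of lysosome genes, by −0.35 ± 0.07. At limma's unadjusted p under 0.05 there were 16 lower and 2 higher. Of these lysosome and autophagy genes 7 were lower without the replicate block and 8 without HL-60.

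Of 36 measured MYC and ribosome biogenesis genes 10 were higher and 0 lower, against 6.45% and 5.06% of all genes, and the median was 0.08. At limma's unadjusted p under 0.05 there were 15 higher and 2 lower. MYC itself differed by 0.27 ± 0.07 (adjusted p = 0.0397, higher in 7 of 8 pairs), with 0.42 in HL-60 and −0.00 in MOLM-14. MYC did not pass without the replicate block (adjusted p = 0.215), with median scaling (0.0715) or without HL-60 (0.196), THP-1 (0.153) or U937 (0.0975). SRM, spermidine synthase, differed by 0.26 ± 0.04 (adjusted p = 0.00419), PPAT, of purine synthesis, by 0.18 ± 0.03 and NOLC1, a nucleolar protein, by 0.22 ± 0.04. The count of 10 fell to 4 without the replicate block, to 4 without either HL-60 pair, to 3 without HL-60 and to 5 without the replicate 1 pair of U937. It fell to 6 without the replicate 1 pair of THP-1 or of MOLM-14, with median scaling, with no further normalization or with a pseudocount of 1.

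Of the beta-catenin pathway, 2 members of the destruction complex passed the test and beta-catenin itself did not. CTNNB1, beta-catenin, was at −0.07 ± 0.03 (adjusted p = 0.194), LEF1 at 0.07 ± 0.06, TCF7L2 at −0.05 ± 0.05, CCND1 at 0.08 ± 0.06 and CCND2 at 0.18 ± 0.07, none past the test. Of 19 genes of the destruction complex list 2 were higher (10.5%) and 0 lower, where 6.45% and 5.06% of all genes were, so the share higher is near that of all genes. They were CSNK1A1, the priming kinase of beta-catenin, by 0.35 ± 0.04 (adjusted p = 0.00139), and the scaffold APC by 0.24 ± 0.05 (adjusted p = 0.0201). APC did not pass without HL-60 (0.0974), MOLM-14 (0.0661) or U937 (0.0898). CSNK1A1 was at −0.40 against the control with hairpin 1 and at −0.05 with hairpin 2. Of 25 TCF/LEF factors and Wnt targets 3 were higher and 0 lower, against the same shares of all genes. They were TCF4 by 0.44 ± 0.08, TLE1 by 0.24 ± 0.05 and MYC. TCF4 is a basic helix-loop-helix factor outside the TCF/LEF family. TLE1, a corepressor, had 1 of 4 probe sets at −0.01 and did not pass without the replicate block (adjusted p = 0.129) or without HL-60 (0.12), THP-1 (0.09) or U937 (0.0898). Glycogen metabolism gave 1 higher and 1 lower of 22, PYGL, glycogen phosphorylase, at 0.17 ± 0.04 and GAA, the lysosomal glucosidase, at −0.17 ± 0.04. Neither passed without the replicate block (adjusted p = 0.21 and 0.427), PYGL did not without THP-1 (0.0541), and GAA did not without HL-60 (0.142), MOLM-14 (0.139) or U937 (0.0536).

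Genes of the RNA interference machinery and of the response to double-stranded RNA were listed because both groups carried hairpins. Of 16 genes of the machinery 1 was higher (6.25%) and 2 were lower (12.5%), where 6.45% and 5.06% of all genes were. The lower ones were the decapping factors DCP1A by −0.39 ± 0.06 (adjusted p = 0.00339) and DCP2 by −0.65 ± 0.10 (adjusted p = 0.00357). DCP2 ran from 396 to 770 with hairpin 1 and from 203 to 654 with hairpin 2. DICER1 was at 0.17 ± 0.05 and AGO2 at −0.20 ± 0.07, with adjusted p of 0.0628 and 0.0801. Over 11 other ways of processing limma's adjusted p ran from 0.0418 to 0.168 for DICER1 and from 0.0418 to 0.199 for AGO2. Of 12 sensors of double-stranded RNA 0 passed limma's adjusted threshold, where 11.5% of all genes did, and 2 had an unadjusted p under 0.05. Of 42 interferon-stimulated genes 3 were lower (7.14%) and 0 higher, where 5.06% and 6.45% of all genes were, with a median of −0.03. Among the lower ones IRF7 differed by −0.43 ± 0.10 and IFI35 by −0.23 ± 0.05. Neither passed without HL-60 (adjusted p = 0.116 and 0.091) or without MOLM-14 (0.0744 and 0.0684).

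**Figure D5:**
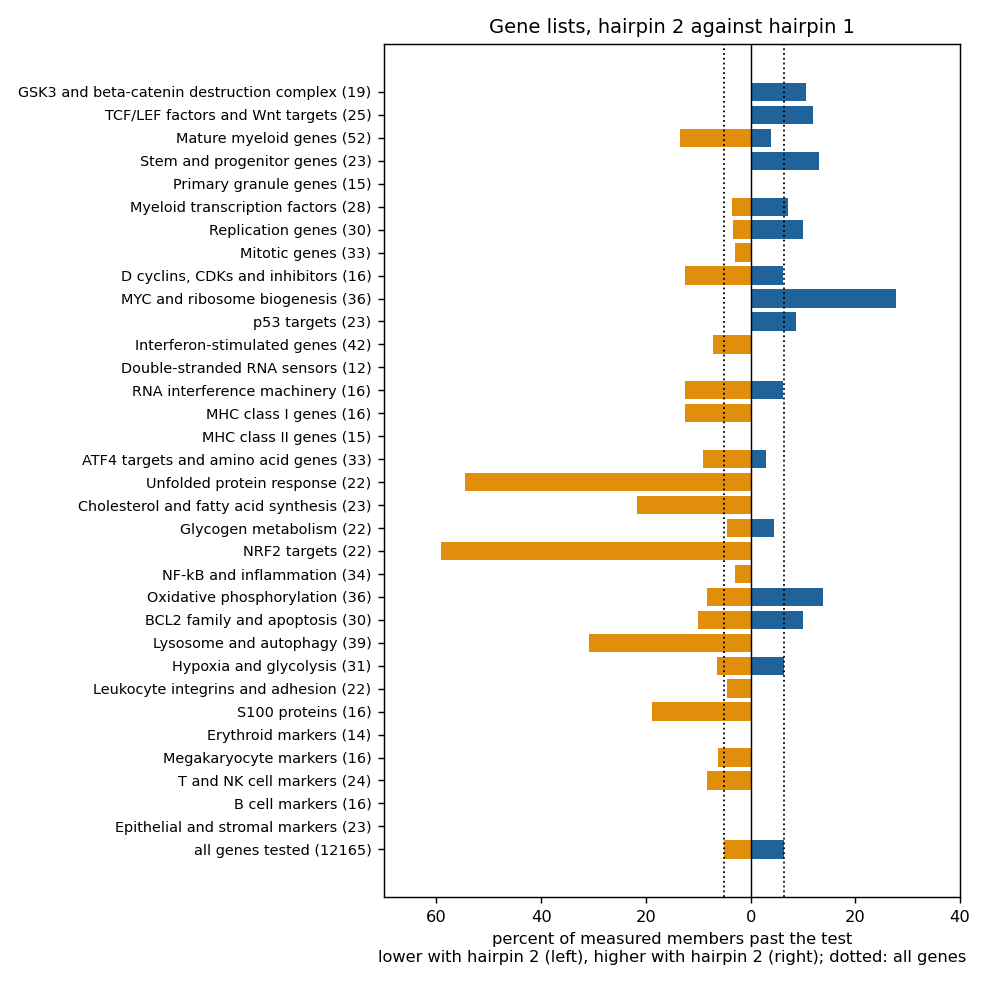
Percent of the measured members of each gene list past the test over the lines, lower with hairpin 2 to the left (orange) and higher to the right (blue), with the number measured in brackets. Dotted lines mark all genes, 5.06% lower and 6.45% higher. The NRF2 list (59.1% lower), the unfolded protein response (54.5%), the lysosome list (30.8%) and the MYC list (27.8% higher) reach farthest from the dotted lines.

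Of 52 mature myeloid genes, 7 were lower with hairpin 2 (13.5%) and 2 higher (3.85%), against 5.06% and 6.45% of all genes, with a median of −0.18. S100A8 and S100A9 form calprotectin, an abundant protein of neutrophils and monocytes. S100A8 ran from 41.4 to 7952 with hairpin 1 (median 1290) and from 23.4 to 4917 with hairpin 2 (median 436). Its level differed far more between lines than between hairpins, and within each pair it was lower with hairpin 2, by −0.87 ± 0.13 (adjusted p = 0.00357, and 0.237 without the replicate block). S100A9 differed by −0.88 ± 0.12 (adjusted p = 0.00184, and 0.0509 with the replicate number as an additive block).

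TYROBP, an adaptor of myeloid receptors, differed by −0.42 ± 0.08, FGR, a myeloid kinase, by −0.52 ± 0.10, and CCR1, a chemokine receptor, by −1.01 ± 0.22. The count of 7 lower genes was 3 without HL-60 and 4 without MOLM-14 or U937. AIF1 at 0.26 ± 0.04 and FCGR1A, the high-affinity IgG receptor, at 0.21 ± 0.05 were the higher ones. Of 23 stem and progenitor genes 3 were higher and 0 lower, among them BMI1 at 0.19 ± 0.03 (adjusted p = 0.00221) and MYB at 0.24 ± 0.04 (adjusted p = 0.0048). MEIS1 was at −0.03 ± 0.05. Of 28 myeloid transcription factors 2 were higher (7.14%) and 1 lower (3.57%), near the same shares of all genes. NFE2 was lower by −0.47 ± 0.05 (adjusted p = 0.000555) and VDR, the vitamin D receptor, was among the higher ones, at 0.37 ± 0.06.

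The mature myeloid genes differed between lines. In the test between lines 914 of 12165 genes passed (7.51%), of which 169 were also among the 1401. The count was 97 without the replicate block, 92 or 136 without 1 HL-60 pair, 208 or 237 without 1 THP-1 pair and 370 or 358 without 1 U937 pair. Of the 52 mature myeloid genes 26 passed it. In HL-60, 30 of the 52 were lower with hairpin 2 and 1 was higher, where 8.75% of all genes were lower and 9.04% higher. In MOLM-14, 15 were lower and 2 higher, where 5.59% and 6.73% of all genes were. THP-1 and U937 had 2 lower each, where 1.69% and 1.89% of all genes were lower and 1.43% and 1.48% higher. The median of the list was −0.43 in HL-60, −0.15 in MOLM-14, −0.07 in U937 and −0.02 in THP-1. Without the replicate block the list's counts were 16 in HL-60 and 7 in MOLM-14, and 7 genes of the list passed the test between lines. Without 1 HL-60 pair, 17 or 20 were lower in HL-60 and 7 or 8 passed the test between lines, and without 1 THP-1 or U937 pair 13 to 17 passed it. With a pseudocount of 1, 16 passed it.

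CCL2, a monocyte chemokine, gave the largest difference of HL-60. Its HL-60 arrays read 1311 and 1368 with hairpin 1, 263 and 277 with hairpin 2, and 461 to 612 in the controls. Both hairpins lay outside the control range there, on opposite sides. The CCL2 difference was −2.19 ± 0.06 in HL-60, −0.34 ± 0.06 in U937, −0.15 ± 0.06 in THP-1 and 0.02 ± 0.06 in MOLM-14, where it was dim. The lines differed with adjusted p = 0.000164.

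TNFAIP6, a secreted hyaluronan-binding protein, read 446 and 447 with hairpin 1 and 79.4 and 109 with hairpin 2 in HL-60, with controls from 238 to 263. It stayed at 7.93 or less in every other hairpin array. PADI4, the arginine deiminase of neutrophils, read 93.7 and 80.3 with hairpin 1 and 13.4 and 13.2 with hairpin 2 in HL-60, and 7.14 or less elsewhere. The PADI4 controls of HL-60 read 17.8 to 44.1, between the hairpins. GALNT3, a glycosyltransferase, differed by −1.34 ± 0.05 in HL-60, −0.68 ± 0.05 in MOLM-14 and −0.48 ± 0.05 in U937, with a second probe set at 0.04 over the lines. Adjusted p between lines was 0.00217 for TNFAIP6, 0.000208 for PADI4 and 0.00217 for GALNT3.

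The surface markers CD14 and ITGAM had different patterns. CD14 in HL-60 read 347 and 355 with hairpin 1, 154 and 137 with hairpin 2 and 255 to 274 in the controls, a difference of −1.15 ± 0.08 (adjusted p = 0.000211), and it was dim in the other lines. ITGAM, the integrin CD11b, differed in opposite directions: −0.91 ± 0.12 in HL-60 (adjusted p = 0.0021) and 0.46 ± 0.12 in MOLM-14 (adjusted p = 0.0416). In HL-60 the ITGAM arrays read 144 and 165 with hairpin 1 and 77.8 and 68.6 with hairpin 2. In MOLM-14 they read 115 and 146 with hairpin 1 and 199 and 170 with hairpin 2. The ITGAM lines differed with adjusted p = 0.0162.

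MOLM-14 had its largest difference in CCR2, the receptor for CCL2. CCR2 read 420 and 300.5 with hairpin 1, 61.4 and 31.9 with hairpin 2 and 135 to 172 in the MOLM-14 controls. Again both hairpins lay outside the control range on opposite sides. The difference was −2.64 ± 0.06 in MOLM-14 against −0.45 ± 0.06 in HL-60, −0.10 ± 0.06 in THP-1 and −0.05 ± 0.06 in U937. THP-1 had the brightest CCR2, between 917 and 1022, and U937 the dimmest, at 12.9 or less. HSD11B1, which activates cortisone, differed by −1.82 ± 0.18 in MOLM-14 and −1.37 ± 0.18 in THP-1.

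Cholesterol and fatty acid synthesis genes were lower with hairpin 2 most often in THP-1, and their median was below 0 in U937 and MOLM-14 too. Fewer of them passed in THP-1 without the replicate block or without either THP-1 pair. Calls in THP-1 over all genes fell in those settings too, from 380 to 40 without the replicate block. Of 23 measured genes 5 were lower and 0 higher over the lines, against 5.06% and 6.45% of all genes, with a median of −0.14. At limma's unadjusted p under 0.05 there were 9 lower and 1 higher. The count of 5 was 2 without the replicate block, 8 without HL-60, and 3 without THP-1, without U937 or without 1 pair (HL-60 replicate 2 or U937 replicate 1). In THP-1, 14 of the 23 were lower and 0 higher, where 1.69% of all genes were lower and 1.43% higher, and the list's median was −0.37. At an unadjusted p under 0.05 limma had 16 of the list lower in THP-1, and 8 without the replicate block. In HL-60, 2 were lower and 4 higher, with a median of 0.07. U937 had 5 lower and 0 higher, where 1.89% and 1.48% of all genes were, with a median of −0.18. MOLM-14 had 4 lower and 2 higher, where 5.59% and 6.73% of all genes were, with a median of −0.11. Of the 23 genes, 12 passed the test between lines, against 7.51% of all genes.

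MSMO1, a sterol methyl oxidase, read 938 and 1040.5 with hairpin 1 and 352 and 445 with hairpin 2 in THP-1, with controls from 682 to 801. Its difference was −1.27 ± 0.06 in THP-1, against −0.28 ± 0.06 in HL-60. SCD, the fatty acid desaturase, differed by −0.80 in THP-1 and 0.24 in HL-60, and DHCR7, the last enzyme of cholesterol synthesis, by −0.73 and 0.45. SC5D, another sterol enzyme, was lower in all lines, −0.84 ± 0.05 over the lines (adjusted p = 0.000107), though its other probe set was at −0.00. HMGCS1, which makes the substrate of HMG-CoA reductase, differed by −0.51 ± 0.09 (adjusted p = 0.00635, and 0.091 without the replicate block). The THP-1 count of 14 fell to 2 without the replicate block, to 1 or 2 without 1 THP-1 pair (in THP-1 the deviations of same-numbered arrays had r = 0.002, across genes), to 9 without 1 HL-60 or U937 pair and to 8 with a pseudocount of 1. The 12 past the test between lines fell to 0 without the replicate block (7 at limma's unadjusted p under 0.05) and to between 2 and 5 without 1 pair of HL-60, THP-1 or U937, and to 6 or 7 with a pseudocount of 1 or 64.

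By line, 2164 genes (17.8%) differed between the hairpins in HL-60, 1499 (12.3%) in MOLM-14, 410 (3.37%) in U937 and 380 (3.12%) in THP-1. These counts share 1 estimate of the spread over the lines. With the 4 hairpin arrays of a line alone, 1952 genes passed in HL-60, 173 in MOLM-14 and 0 in THP-1 and in U937. For THP-1 and U937 alone limma had 2407 and 2219 at an unadjusted p under 0.05. Without the replicate block the 4 counts were 685, 406, 42 and 40.

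Cell cycle lists gave few calls over the lines, and their lines had medians of opposite sign. Of 30 replication genes 3 were higher and 1 lower, where 6.45% and 5.06% of all genes were. Among them were GINS3 at 0.38 ± 0.05 (adjusted p = 0.00135) and RRM2, a ribonucleotide reductase subunit, at −0.70 ± 0.10 (adjusted p = 0.00295). Of 33 mitotic genes 1 was lower, CKS2 at −0.12 ± 0.03, which did not pass without the replicate block (adjusted p = 0.434). CCND3, cyclin D3, differed by −0.60 ± 0.12, with −1.16 in HL-60, and CDK4 by 0.16 ± 0.04. CCND3 lost its call without MOLM-14 (adjusted p = 0.0683), and CDK4 without HL-60 (0.122), THP-1 (0.0773) or MOLM-14 (0.0935). CKS2 lost it when any line was left out (0.0541 to 0.148).

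By line, 14 of the 33 mitotic genes were lower in HL-60 and 0 higher, where 8.75% and 9.04% of all genes were, and the median was −0.20. In THP-1 the mitotic list had 3 higher and 0 lower, with a median of 0.14, and 5 of the 30 replication genes were higher and 0 lower, with a median of 0.25, where 1.43% and 1.69% of all genes were higher and lower. ZWINT, a kinetochore protein named here after its values were seen, differed by −0.24 in HL-60 and 0.30 in THP-1. Of the mitotic genes 6 passed the test between lines, against 7.51% of all genes, and without the replicate block limma had 0 (1 at an unadjusted p under 0.05). These counts lean on the replicate block: without it limma had 1 mitotic gene lower in HL-60, and 0 mitotic and 0 replication genes higher in THP-1 (0 and 11 at an unadjusted p under 0.05). Without 1 HL-60 pair 1 or 3 mitotic genes were lower in HL-60, without 1 U937 pair 9, and with a pseudocount of 1 there were 4. Without replicate 1 or 2 of THP-1, limma had 0 higher mitotic genes in THP-1 (6 and 10 at an unadjusted p under 0.05) and 0 higher replication genes (9 and 17).

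Other lists gave shares over the lines nearer to those of all genes than the NRF2 and unfolded protein response lists did. Of all genes 6.45% were higher and 5.06% lower. Of 36 oxidative phosphorylation genes 5 were higher (13.9%) and 3 lower (8.33%). The lower ones included NDUFS1 at −0.24 ± 0.03 and NDUFS4 at −0.22 ± 0.04, both subunits of complex I. NDUFS4 did not pass without the replicate block (adjusted p = 0.194). Without MOLM-14 the list had 2 higher genes, and without HL-60 it had 0 at limma's adjusted threshold and 7 at an unadjusted p under 0.05. Of 30 apoptosis genes 3 were higher and 3 lower (10.0% each). Among them were FAS, a death receptor, at 0.39 ± 0.05 and BAK1, a mitochondrial pore former, at −0.39 ± 0.06. Of 33 ATF4 targets 1 was higher and 3 lower, SLC7A11, NUPR1 at −0.37 ± 0.08 and another. NUPR1 did not pass without HL-60 (adjusted p = 0.11), THP-1 (0.105) or MOLM-14 (0.103). Of 31 hypoxia and glycolysis genes 2 were higher, EGLN1 at 0.34 ± 0.05 and another, and 2 lower, PKM at −0.31 ± 0.04 and another, with 1 of 3 PKM probe sets at 0.03. PKM did not pass without the replicate block (adjusted p = 0.0811), and the mean of its probe sets differed by −0.12 (adjusted p = 0.0375). Of 34 NF-kB genes TNFAIP2 alone was lower, at −0.63 ± 0.13 and −1.24 in HL-60. TNFAIP2 had adjusted p = 0.0521 with the replicate number as an additive block. The count of 1 was 2 without the replicate block, 3 with median scaling or a pseudocount of 1 and 4 with dim genes left out.

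Within single lines some of these lists stood farther from all genes than they did over the lines. The genes named in the rest of the paragraph, apart from MPO, were picked after their values were seen. Neutrophil precursors use the 15 primary granule genes to fill their first granules. Of these 15 genes 6 were higher and 2 lower in HL-60, where 9.04% and 8.75% of all genes were. The test between lines was passed by 8 of them, against 7.51% of all genes. CTSG, the protease cathepsin G, differed by 0.73 and DEFA4, a defensin, by 0.81 in HL-60, while RNASE2, a ribonuclease of eosinophils, was at −0.54 there. In MOLM-14, 3 were lower and 1 higher, where 5.59% and 6.73% of all genes were, with MPO at −0.60 and the elastase gene ELANE at 0.59. Without the replicate block 1 primary granule gene was higher in HL-60 and 2 passed the test between lines, without 1 HL-60 pair 3 were higher and 2 or 3 passed, and without 1 THP-1 pair 5 passed.

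Of the 33 ATF4 targets, genes of amino acid supply and stress, 15 were lower and 1 higher in MOLM-14, where 5.59% and 6.73% of all genes were. The list's median there was −0.21, and 12 of the 33 passed the test between lines, against 7.51% of all genes. ASNS, asparagine synthetase, also named after its values were seen, differed by −0.55 in MOLM-14 and 0.50 in HL-60. Of the 34 NF-kB genes 12 were lower in HL-60 and 0 higher, where 8.75% and 9.04% of all genes were, with a median of −0.20. The test between lines was passed by 9 of the 34, CCL2 and TNFAIP2 among them. Without the replicate block the ATF4 list had 2 lower in MOLM-14 and the NF-kB list 7 lower in HL-60, and each had 1 gene past the test between lines. Without 1 HL-60, THP-1 or U937 pair 1 to 4 ATF4 genes and 3 to 6 NF-kB genes passed that test, without 1 MOLM-14 pair 8 or 9 ATF4 genes were lower in MOLM-14, and with a pseudocount of 1 or 64 the ATF4 list had 4 or 6 past the test between lines.

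Of 16 MHC class I genes 2 were lower (12.5%) and 0 higher, where 5.06% and 6.45% of all genes were. They were HLA-F at −0.26 ± 0.07 and HLA-C at −0.20 ± 0.05. The 14 HLA-C probe sets share sequence with other class I genes, 4 of them had the other sign, and neither gene passed without the replicate block (adjusted p = 0.365 and 0.178) or without HL-60 (0.152 and 0.187) or MOLM-14 (0.0659 and 0.14). Over the lines, 0 of 15 primary granule genes and 0 of 15 MHC class II genes passed limma's adjusted threshold, with 3 and 2 at an unadjusted p under 0.05.

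Most markers of other cell types were dim. All 16 B cell markers, 13 of 14 erythroid, 15 of 16 megakaryocyte, 21 of 24 T and NK cell and 21 of 23 epithelial and stromal markers had a median intensity under 32 with each hairpin. The summed level of the T and NK list ran from 364 to 1413 with hairpin 1 and from 316 to 1203 with hairpin 2. The epithelial and stromal list had the highest sums, 1673 to 5187 with hairpin 1 and 842 to 4764 with hairpin 2, and its VIM, the intermediate filament protein vimentin that leukocytes also make, ran from 1270 to 4205 and from 492 to 2996 in the same order. The 1 megakaryocyte marker past the test was NFE2, which is also on the myeloid factor list, and it was lower. That is 6.25% of the list, near the 5.06% of all genes that were lower. In the T and NK list 2 of 24 were lower (8.33%) and 0 higher, where 5.06% and 6.45% of all genes were. NKG7, a granule protein also made by myeloid cells, was lower by −0.68 ± 0.09 (adjusted p = 0.00151), and LAT by −0.32 ± 0.07. LAT did not pass without HL-60 (adjusted p = 0.0945), MOLM-14 (0.077) or U937 (0.1). Of the B cell, erythroid and epithelial lists 0 genes passed limma's adjusted threshold, where 11.5% of all genes did. At an unadjusted p under 0.05 limma had 0, 1 and 3 of them.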

How the data were processed

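The authors deposited 1 linear intensity per probe set and array, with similar quartiles on all arrays. Per the submitters' processing notes RMA and MAS5 were used; the sources used here do not say which of them made the table. Arrays have no read depth, and their number limits precision. Of 22277 probe sets 19724 name 1 gene, and the brightest over the 16 hairpin arrays was kept per gene, which left 12165 genes. Values were log2(intensity + 16), which shrinks differences of dim genes, quantile-normalized over the 44 arrays.

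Hairpin 2 minus hairpin 1 was fitted with limma 3.58.1 in R 4.3.3, with each cell line and replicate number as a block (8 blocks, 7 residual degrees of freedom), and per line with a moderated F-test between lines (4 residual degrees of freedom). Tests were two-sided and Benjamini-Hochberg adjusted, threshold 0.05. Same-numbered arrays deviated together in MOLM-14 (r = 0.754) and U937 (r = 0.796) but not in HL-60 (0.081) or THP-1 (0.002). On simulated data the fit recovered 95% of 100 genes changed by a log2 of 0.5 and 100% of 100 changed by 1. Of its 215 calls there, 20 were false. The simulated noise was independent between arrays, so this cannot tell how the fit behaves if replicates are only technical.

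Named genes were GSK3B, GSK3A, the 12 largest differences each way with 1 sign in all pairs, the 2 smallest p per list, 5 between lines, 2 each way per line and a fixed set; AXIN2, in that set, is not measured here. Other list members were chosen after their values were seen. The comparison and the 33 lists were chosen with earlier results of these data known.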

Additional observations from a re-analysis of the deposited data

Results flagged for a closer look

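Among the 88 genes named by rule, 5 had 1 of their 8 paired differences far from the others, where chance alone sets about 1 gene in 20 apart. The pairs were GSK3B in MOLM-14 replicate 2 (log2 difference 0.32), CLIC4 in U937 replicate 1 (1.31), ITGAX in THP-1 replicate 2 (0.22), LEF1 in THP-1 replicate 2 (0.50) and MEIS1 in MOLM-14 replicate 2 (0.33). For GSK3B this is the 1 pair in which hairpin 2 left more transcript than hairpin 1.

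For 26 of the 88 named genes the hairpin difference differed between the lines (limma F-test, adjusted over all genes), where 7.51% of all genes did. Some of the named genes were picked by this same test or for their difference within a line. The count of 26 was therefore partly fixed by the choice of genes and cannot be compared with that share. In HL-60 the difference was the largest for CCL2 (adjusted p = 0.000164), PADI4 (0.000208), TNFAIP6 (0.00217), GALNT3 (0.00217), CD14 (0.00642), CCND3 (0.014), RRM2 (0.0149), TNFAIP2 (0.0439) and DCP2 (0.0302), and it had opposite signs in HL-60 and MOLM-14 for ITGAM (0.0162). MOLM-14 stood apart for CCR2 (0.000164) and MPO (0.0435), and together with THP-1 for HSD11B1 (0.0179). THP-1 stood apart for MSMO1 (0.00785) and AKR1C1 (0.0312), and had the smallest difference for SLC7A11 (0.00815), FAM3C (0.0478), RAB6A (0.0183), RTCA (0.044), ALDH5A1 (0.0217), PAAF1 (0.0234), MED21 (0.0302) and PRELID3B (0.0183). AGPAT5 (0.0192) was smallest in U937, HLA-C (0.0459) was at 0.00 in THP-1, and NUPR1 (0.0454) was at 0.02 in U937.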

How the results depend on the processing

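The count of 1401 genes (785 higher, 616 lower) was 848 (446 and 402) with the replicate number as an additive block and 814 (425 and 389) with no replicate block. It was 631 (311 and 320) without HL-60 and 849 (435 higher) without MOLM-14. Leaving out 1 pair or replicate number gave 6 to 1331 genes, 1 to 750 higher and 5 to 581 lower. The pairing was taken from the comparison's definition, and same-numbered arrays deviated together in only 2 of the 4 lines. Of the 1401 genes, 778 passed again with no replicate block. Those tested kept their sign in every setting run except 2 under the mean of the probe sets. The settings reuse the pairs on which these genes were called, so the kept sign was largely fixed in advance. Of all 12165 genes, 8326 had the same sign with either replicate number alone.

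The 914 genes of the test between lines became 340 with a pseudocount of 1, 89 with the additive block and 97 with none, and 92 to 1339 when 1 pair was left out. In HL-60 (2164) the additive block gave 714 and none 685, and a pair left out gave 717 to 2501, with 1952 from its arrays alone. In MOLM-14 (1499) these were 424, 406 and 935 to 1362, with 173 from its arrays alone. In THP-1 (380) they were 30, 40 and 2 to 558, with 99 at a pseudocount of 1 and 0 alone. In U937 (410) they were 49, 42 and 1 to 598, with 196 at a pseudocount of 1 and 0 alone.

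The GSK3B difference of −0.25 passed without dim genes (−0.25, adjusted p = 0.045), without MOLM-14 (−0.36) and without its replicate 2 pair (−0.33). With a pair or replicate number left out it ran from −0.35 to −0.15. PADI4 (−0.43 over the lines) and TNFAIP6 (−0.51), whose differences lay in HL-60, were at 0.0291 and 0.0057 without that line. Differences near 0 over the lines changed sign when a line was left out for ITGAM (0.194 without HL-60), AKR1C1 (−0.143 without THP-1), LEF1 (−0.013 without THP-1) and MPO (0.0033 without MOLM-14). With 1 pair or replicate number left out, ITGAM ran from −0.195 to 0.0572, AKR1C1 from −0.0066 to 0.29 and MEIS1 from −0.082 to 0.0201. The causes were not tested. The B cell list had no gene left once dim genes were left out and gives no value there. Each line has 2 pairs, so the counts of MOLM-14, THP-1 and U937 lean on the spread of the other lines. The 2164 of HL-60 lean on it less, since its arrays alone gave 1952, still from only 2 pairs.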
